A study of Homo sapiens with 6 samples.

Results

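Metalloproteinases of the MMP, ADAM and ADAMTS families and their TIMP inhibitors were examined in SKOV3 cells, an established human ovarian cancer cell line, with and without silencing of KLF5. The genes were all protein-coding genes of the deposited table whose symbol is MMP, ADAM, ADAMTS or TIMP followed by a number and at most 1 letter, which gave 51 of 29185 genes, with 18 MMP, 15 ADAM, 14 ADAMTS and 4 TIMP genes. Poly(A) RNA was sequenced from cells carrying a pLKO.1-EGFP-Puro lentiviral shRNA against KLF5, selected with puromycin (sh-KLF5, 3 libraries). It was also sequenced from control cells (titled NC and called sh-NC here, 3 libraries). The sample labels give the controls as WT in the genotype field. The paper does not state whether the controls carried a vector or were selected with puromycin. Effects of either cannot be told apart here from those of silencing. Only 1 silenced line is present, without a rescue, and no source states whether the libraries of a group were separate cultures, so that the p-values measure the spread between these libraries, which may be technical. In bulk RNA of this kind, fewer cells that express a gene and less RNA per cell cannot be told apart.

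MMPs are zinc endopeptidases that are made as inactive precursors and cleave collagens, proteoglycans and other matrix proteins, either after secretion or while anchored in the cell membrane. ADAMs are membrane proteins, many of which release the outer parts of growth factors and receptors from the cell surface, and ADAMTS enzymes are secreted and act on proteoglycans, procollagens and microfibrils. TIMPs bind the active site of these enzymes and block it. In ovarian cancer such enzymes are known for their part in the spread of tumor cells over the peritoneum, and KLF5 is a zinc finger transcription factor that binds GC-rich and CACCC sequences.

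Of the 9 epithelial and ovarian carcinoma markers listed for the labelled cell type, 8 were in the table and had over 3 reads in at least 1 library. KRT7, KRT8, KRT18, PAX8, ERBB2, EPCAM and MUC16 were counted in all 6 libraries, and KRT19 was low, with 2 to 17 reads. All 6 listed fibroblast markers also had over 3 reads in at least 1 library. Their mean normalized counts in sh-NC were 505 for COL3A1, 337 for LUM and 291 for DCN. PDGFRA, COL1A1 and COL1A2 were lower (73.5, 62.4 and 26.8 in sh-NC). In the epithelial list, KRT7, KRT8, KRT18 and ERBB2 were far higher (means of 32100, 21820, 3696 and 1993 in sh-NC). PAX8, EPCAM, MUC16 and KRT19 had sh-NC means of 352, 120.5, 86.2 and 6.19. The leukocyte markers PTPRC, CD68 and LYZ summed to at most 4.0 normalized counts in any library. In a normalized count, the reads of each gene are divided by the scaling factor of their library, with 15852319 to 17543896 reads per library, and 3 reads, the limit that a count of 0 allows, were equal to 0.171 to 0.189 CPM, which is scaled to the total of each library. These limits and the intervals on reads given further on cover counting error only. KLF5 itself had 4371, 4425 and 4494 normalized counts in sh-NC and 1745, 1440 and 1436 in sh-KLF5 (log2 fold change -1.53, adjusted p = 2.47e-07 from limma).

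The 120 bases that lie upstream of the start of 5 of the 8 members that were called different between the groups are shown here, since KLF5 is a factor that binds promoters. No window is shown for the other called members, MMP3, ADAMTS3 and MMP16. They were taken from RefSeq (GRCh38.p14), they run 5′ to 3′ on the strand of the gene, and each ends directly before the more upstream of the RefSeq and GENCODE starts. Capitals mark 3 motifs, each searched on both strands. The AP-1 site was spelled TGANTCA, with any base at N. The TATA box, which places the start of transcription, was spelled TATAAA. The GC or CACCC box, the kind of site that KLF factors bind, was spelled CCCCNCCC.
MMP10 (chr11:102780629-102780748, - strand): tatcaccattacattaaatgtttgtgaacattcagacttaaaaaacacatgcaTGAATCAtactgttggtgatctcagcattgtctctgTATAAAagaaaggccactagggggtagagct
TIMP3 (chr22:32801581-32801700, + strand): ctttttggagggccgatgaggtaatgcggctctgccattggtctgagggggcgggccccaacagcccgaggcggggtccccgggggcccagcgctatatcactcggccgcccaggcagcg
MMP24 (chr20:35226534-35226653, + strand): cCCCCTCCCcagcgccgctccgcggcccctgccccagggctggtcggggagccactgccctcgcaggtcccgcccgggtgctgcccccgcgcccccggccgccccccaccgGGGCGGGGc
ADAMTS6 (chr5:65481921-65482040, - strand): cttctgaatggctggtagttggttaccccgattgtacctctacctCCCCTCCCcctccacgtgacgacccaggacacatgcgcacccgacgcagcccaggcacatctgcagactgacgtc
ADAMTS20 (chr12:43552204-43552323, - strand): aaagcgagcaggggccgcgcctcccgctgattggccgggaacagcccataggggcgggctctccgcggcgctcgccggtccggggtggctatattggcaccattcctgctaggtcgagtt
The MMP10 window held 1 AP-1 site and 1 TATA box, an arrangement familiar from MMP promoters. MMP24 had 2 GC or CACCC boxes and ADAMTS6 had 1, whereas none of the 3 motifs, as spelled here, was in the windows of TIMP3 and ADAMTS20. Both of these windows do hold the GC-rich stretch ggggcggg, which misses the spelling searched. Over 27305 RefSeq promoters of the same length, 3.31% held the AP-1 site, 6.01% the TATA box and 26.3% the GC or CACCC box. A match describes the letters only and is not evidence of binding.

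Silencing of KLF5 was accompanied by changes in 8 of the 35 members that had enough reads to be tested. MMP3, MMP24 and ADAMTS6 were higher in sh-KLF5 cells, and ADAMTS3, MMP16, ADAMTS20, TIMP3 and MMP10 were lower. Calls needed an adjusted p under 0.05 and a log2 fold change beyond 1 in either direction (limma, with the Benjamini-Hochberg method over all 15803 tested genes). The 3 members called higher were 8.57% of those tested, against 1.9% of all tested genes, and the 5 called lower were 14.3%, against 3.37%. Among protein-coding genes alone, the shares were 1.93% and 3.61%. The median log2 fold change of the tested members was -0.06 and that of all tested genes -0.00232. The median of the absolute log2 fold change was 0.51 in members and 0.22 in all tested genes. Absolute values grow with counting error, and these medians were not matched for level. Of the tested members, 23 were under 500 normalized counts in both groups. The other 16 members were too low to test, and in 5 of these no library had over 3 reads. These untested genes are MMP9, MMP12, MMP13, MMP19, MMP21, MMP23B, MMP28, ADAM18, ADAM19, ADAM20, ADAM21, ADAMTS4, ADAMTS5, ADAMTS8, ADAMTS12 and ADAMTS16.

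**Figure D1:**
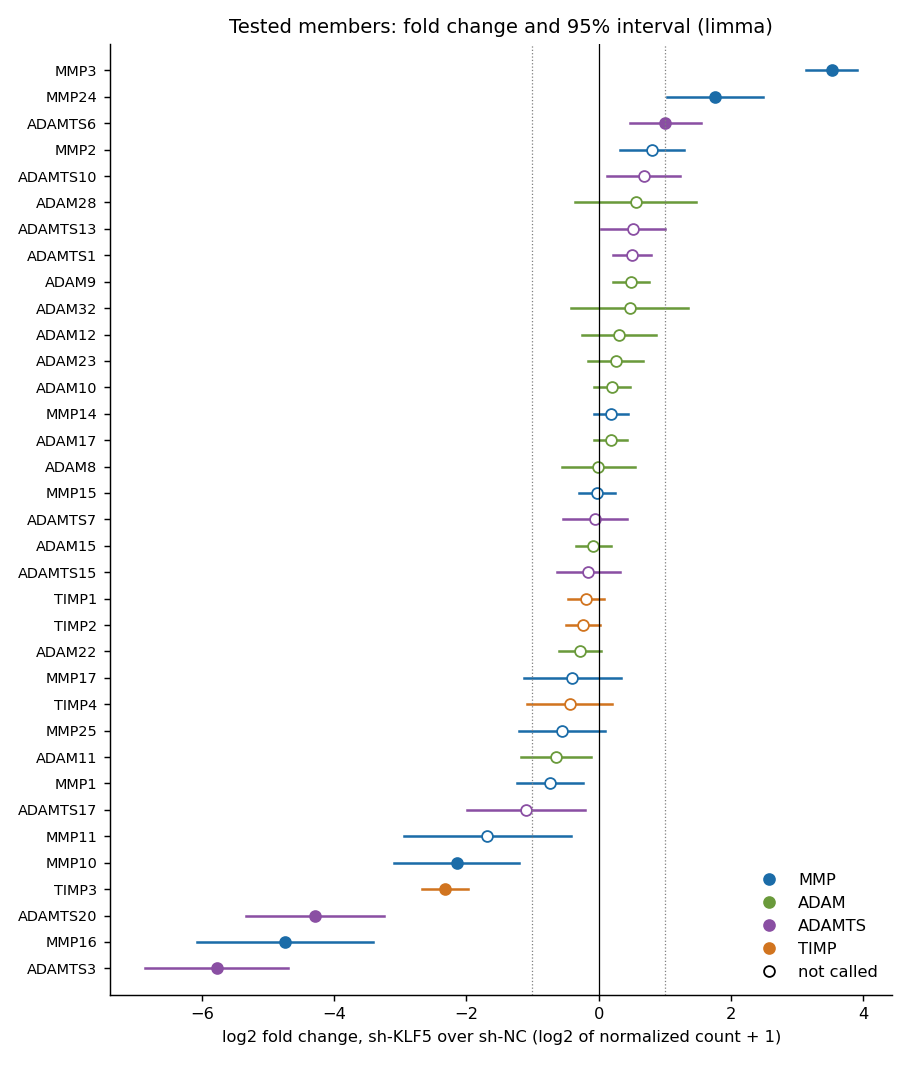
Log2 fold change (sh-KLF5 over sh-NC, horizontal axis) of the 35 tested members with the 95% interval from limma, coloured by family; filled points are called and open points are not, and dotted lines mark -1 and 1. The 8 called members lie outside the dotted lines, as do MMP11 and ADAMTS17, which missed the adjusted p, and the ADAM genes lie between -0.65 and 0.56.

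Among the families, 2 MMP genes were higher and 2 lower of 11 tested, 1 ADAMTS gene was higher and 2 lower of 9 tested, and 1 TIMP was lower of 4 tested. None of the 11 tested ADAM genes was called in either direction, beside 1.9% of all tested genes called higher and 3.37% called lower. At these shares, the lack of a call among 11 genes says little. No test compared the families with each other. The sh-KLF5 libraries lay wholly above the controls in 9 of the 35 tested members (25.7%), against 15.4% of all tested genes, and wholly below them in 10 (28.6%), against 15.9%. For each of the 8 called genes, the 3 sh-KLF5 libraries lay on 1 side of the 3 sh-NC libraries (exact permutation test on each gene, two-sided p = 0.1, the smallest that 3 against 3 libraries allow). These genes were chosen by their calls in the same libraries, so that this separation adds no further support.

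**Figure D2:**
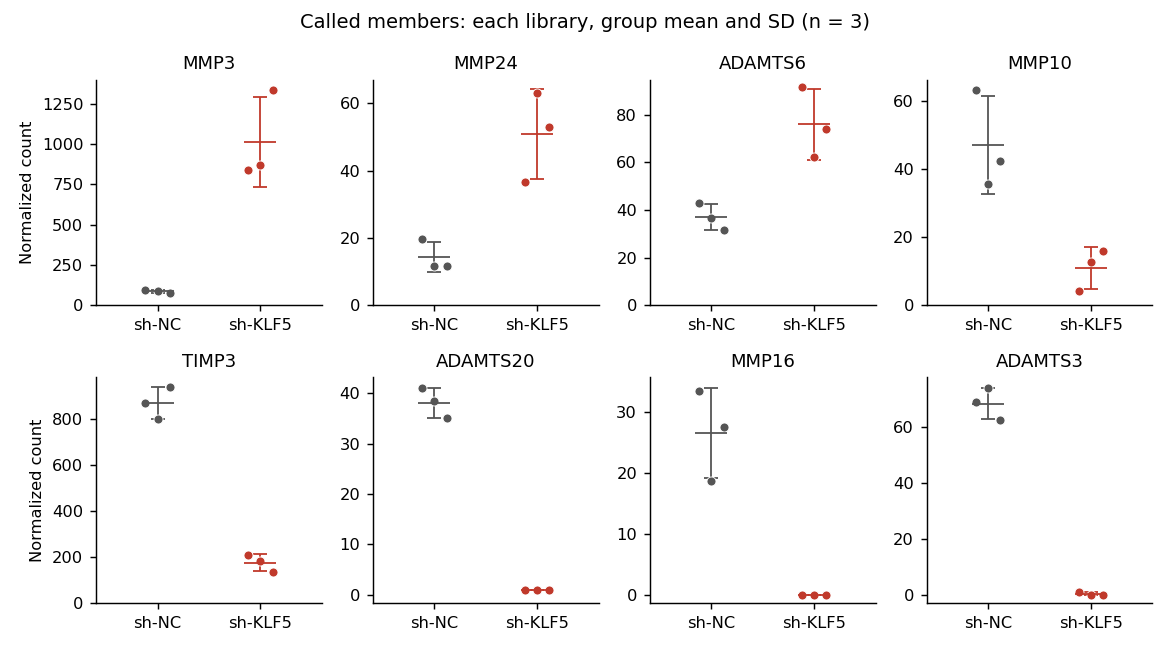
Normalized counts (vertical axis, linear and different for each gene) of the 8 called members in each library, with the group mean as a long bar and the SD as error bars (n = 3). The groups do not overlap in any of the 8 genes, and ADAMTS20, MMP16 and ADAMTS3 stand at at most 1 read in every sh-KLF5 library.

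The stromelysins, secreted MMPs that degrade proteoglycans and can activate other MMP precursors, moved in opposite directions. MMP3 (stromelysin-1, ENSG00000149968, GRCh38 chromosome 11, 102835801 to 102843803, - strand) had 95, 87.7 and 74.3 normalized counts in sh-NC and 837.8, 869.4 and 1337 in sh-KLF5. Every sh-KLF5 library was thus far above every control library, and the mean was 11.9-fold higher (log2 fold change 3.52, standard error [SE] 0.18, adjusted p = 2.99e-09 from limma). MMP10 (stromelysin-2, ENSG00000166670, chromosome 11, 102770503 to 102780628, - strand), a gene close to MMP3 in sequence, had 63.3, 35.5 and 42.4 normalized counts in sh-NC and 4.1, 12.6 and 16.0 in sh-KLF5. The control libraries were all higher, and 23.2% of their mean remained in sh-KLF5 (log2 fold change -2.14, SE 0.45, adjusted p = 0.00358 from limma). Of the stretches of 31 bases in MMP10 exons, 7.12% also occur in MMP3, so that reads of this kind could be assigned to either gene. MMP11 (stromelysin-3, chromosome 22) had 12.1, 16.8 and 14.9 normalized counts in sh-NC and 7.1, 5.8 and 1.0 in sh-KLF5, which did not pass the test (log2 fold change -1.68, 95% interval -2.94 to -0.42, adjusted p = 0.0762 from limma).

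MMP3, MMP10 and MMP1 lie in 1 cluster of MMP genes on chromosome 11, together with MMP12 and MMP13. In the coordinates of the table the 5 genes span 185 kb (chromosome 11, 102770503 to 102955734), all on the - strand, in the order MMP10, MMP1, MMP3, MMP12, MMP13, with 9291 bases between MMP10 and MMP1 and 37640 bases between MMP1 and MMP3. MMP1 (interstitial collagenase), which cleaves fibrillar collagen, lies between the gene that fell and the gene that rose. It had 119.2, 189.2 and 208.0 normalized counts in sh-NC and 96.8, 79.6 and 130.3 in sh-KLF5, so that the groups overlapped. The difference in MMP1 missed the threshold (log2 fold change -0.74, 95% interval -1.23 to -0.24, adjusted p = 0.0505 from limma), while its adjusted p was between 0.00901 and 0.23 over the alternatives. MMP13 (collagenase-3) had no read in any sh-NC library and 4, 3 and 6 reads in sh-KLF5, and MMP12 (macrophage elastase) had 0 to 4 reads in all libraries, so neither was tested.

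Within 500 kb on either side of the cluster, 13 further genes were listed and 6 were tested, with log2 fold changes from -0.11 to 0.73. None of the 6 was called, against 1.9% of all tested genes called higher and 3.37% called lower. At these shares, the lack of a call among 6 genes says little. The tested genes included the apoptosis inhibitors BIRC3 (adjusted p = 0.0722 from limma) and BIRC2 (adjusted p = 0.192 from limma). For both, the sh-KLF5 libraries lay wholly above the controls, as in 15.4% of all tested genes. The antisense gene WTAPP1 overlaps 7.61% of the exonic bases of MMP1 and 1.56% of those of MMP3, and it had at most 9 reads in a library.

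**Figure D3:**
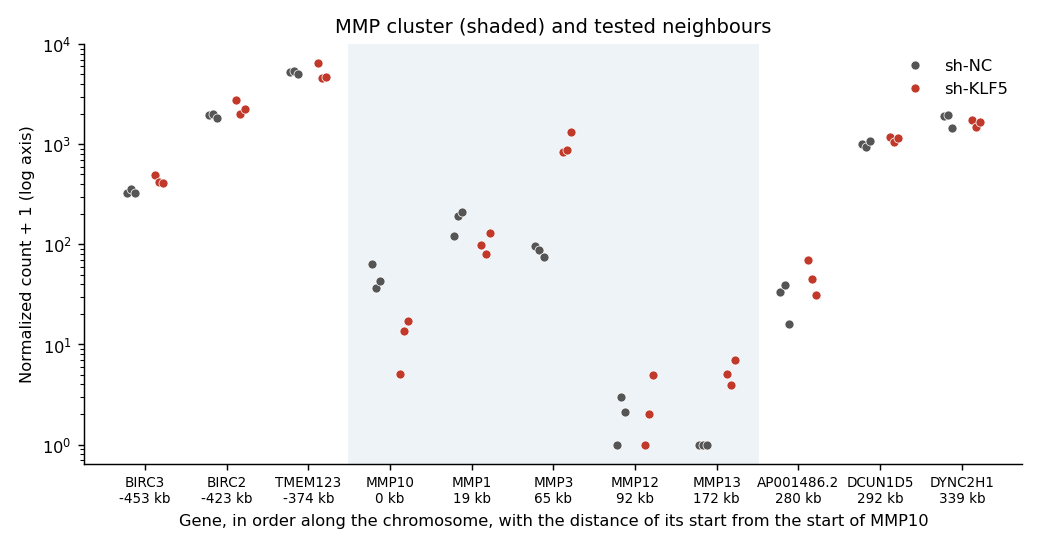
Normalized count + 1 (vertical log axis) of the 5 genes of the MMP cluster (shaded) and of the 6 tested neighbours in each library, in their order along chromosome 11, with the distance in kb of each gene from MMP10 under its name. MMP3 is higher and MMP10 lower in all 3 sh-KLF5 libraries, and MMP1 overlaps. No neighbour was called, beside 1.9% of all tested genes called higher and 3.37% called lower.

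The gelatinases cleave denatured collagen and the collagen of basement membranes. MMP2 (chromosome 16) had 211.4, 168.5 and 235.6 normalized counts in sh-NC and 515.7, 366.8 and 238.6 in sh-KLF5. All sh-KLF5 libraries were above the controls, the third of them only just. The log2 fold change of MMP2 was 0.81 (SE 0.23, adjusted p = 0.0265 from limma), which is under the fold threshold. With libraries left out in turn it lay between 0.54 and 1.09, and its adjusted p stayed under 0.05 only without sh-KLF5 replicate 3, where MMP2 was also past the fold threshold. MMP9 (chromosome 20) had at most 6 reads in a library and was not tested.

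The membrane-type MMPs, which act at the cell surface, were all tested, with 1 of 6 higher and 1 lower. MMP24 (MT5-MMP, ENSG00000125966, chromosome 20, 35226654 to 35277000, + strand), best known from the nervous system, had 19.6, 11.8 and 11.7 normalized counts in sh-NC and 36.7, 63.1 and 53.1 in sh-KLF5. All sh-KLF5 libraries were higher, 3.55-fold in the mean (log2 fold change 1.76, SE 0.34, adjusted p = 0.0022 from limma). The antisense gene MMP24OS overlaps 18.1% of the exonic bases of MMP24, and whether the counting used strand is not given in the sources used here. MMP24OS had 62.4, 70.9 and 94.4 normalized counts in sh-NC and 89.7, 123.2 and 87.2 in sh-KLF5, and these groups overlapped (log2 fold change 0.40, adjusted p = 0.297 from limma).

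MMP16 (MT3-MMP, ENSG00000156103, chromosome 8, 88032009 to 88328025, - strand), an activator of the MMP2 precursor, had 33.5, 18.7 and 27.6 normalized counts in sh-NC and no read in sh-KLF5. With 81 reads against 0, MMP16 was at least 8.89-fold lower when each sh-KLF5 library is set to 3 reads (adjusted p = 7.22e-05 from limma). MMP14 (MT1-MMP), the main membrane-anchored collagenase and the most abundant MMP per length in both groups, had 3024, 2822 and 3412 normalized counts in sh-NC and 3233, 3942 and 3379 in sh-KLF5. The groups overlapped for MMP14, and the log2 fold change was 0.19 (95% interval -0.07 to 0.44, adjusted p = 0.354 from limma). MMP15 (MT2-MMP) likewise overlapped, with 669.4, 599.1 and 657.9 against 619.7, 723.8 and 566.5 normalized counts (log2 fold change -0.02, 95% interval -0.29 to 0.25). MMP17 and MMP25, which are held in the membrane by a lipid anchor, had log2 fold changes of -0.40 and -0.56 and did not pass the test (adjusted p = 0.511 and 0.27 from limma).

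The ADAM genes with a catalytic site include the main sheddases, ADAM10 and ADAM17. ADAM10, which cleaves Notch and cadherins, had 3812, 3740 and 3374 normalized counts in sh-NC and 5099, 3782 and 3817 in sh-KLF5 (log2 fold change 0.20, 95% interval -0.07 to 0.48, adjusted p = 0.348 from limma). ADAM17, which releases TNF and ligands of the EGF receptor, had 890.1, 836.6 and 856.3 against 1029, 879.1 and 1035 (log2 fold change 0.18, 95% interval -0.06 to 0.43, adjusted p = 0.347 from limma). Both genes overlapped between the groups, as did ADAM15, the most abundant ADAM per length (log2 fold change -0.08, 95% interval -0.34 to 0.18). Of the exonic bases of ADAM17, 12.3% are shared with the antisense gene IAH1, which had 234 to 293 reads in a library.

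ADAM9, a sheddase at the cell surface, was the only tested ADAM gene with an adjusted p under 0.05, and its change stayed under the fold threshold. It had 2468, 2269 and 2231 normalized counts in sh-NC and 3923, 2784 and 3180 in sh-KLF5, with no overlap (log2 fold change 0.49, SE 0.13, adjusted p = 0.0189 from limma). Without sh-NC replicate 2 or sh-NC replicate 3 the adjusted p was 0.0996 or 0.0949. Of the other catalytic members, ADAM8, ADAM12 and ADAM28 had log2 fold changes of -0.00422, 0.31 and 0.56 and did not pass the test (adjusted p = 0.995, 0.495 and 0.45 from limma). The 4 tested ADAM genes without a catalytic site (ADAM11, ADAM22, ADAM23 and ADAM32), some of which bind partners at synapses, had log2 fold changes from -0.65 to 0.47. ADAM22, the most abundant of these, had 523.3, 605.0 and 549.6 normalized counts in sh-NC and 551.4, 480.3 and 367.0 in sh-KLF5, and the groups overlapped (adjusted p = 0.261 from limma).

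Of the ADAMTS genes, ADAMTS3 and ADAMTS20 fell to a few reads at most. ADAMTS3 (ENSG00000156140, chromosome 4, 72280969 to 72569386, - strand), a procollagen N-peptidase that also activates VEGF-C, had 68.9, 73.9 and 62.6 normalized counts in sh-NC and 1.0, 0.0 and 0.0 in sh-KLF5. With 208 reads in sh-NC and 1 read in sh-KLF5, 0.496% of the control mean remained (95% exact counting interval 0.0122 to 2.73%, adjusted p = 1.07e-06 from limma). ADAMTS20 (ENSG00000173157, chromosome 12, 43353866 to 43551921, - strand), an enzyme that cleaves versican, had 41.0, 38.4 and 35.0 normalized counts in sh-NC and 1 read in each sh-KLF5 library. With 116 against 3 reads, 2.62% of the control mean of ADAMTS20 remained (95% exact counting interval 0.53 to 7.81%, adjusted p = 1.71e-05 from limma). Both genes were thus near the limit of detection in all 3 sh-KLF5 libraries and well counted in every control library. No other gene overlaps the exons of ADAMTS20, and 0.976% of those of ADAMTS3 lie opposite another gene.

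ADAMTS6 (ENSG00000049192, chromosome 5, 65148736 to 65481920, - strand), which is closely related to the microfibril-associated ADAMTS10, had 42.8, 36.5 and 31.8 normalized counts in sh-NC and 91.7, 62.1 and 74.2 in sh-KLF5. All sh-KLF5 libraries were higher, 2.05-fold in the mean (log2 fold change 1.01, SE 0.25, adjusted p = 0.014 from limma). This call lay at the fold threshold and was lost with a pseudocount of 5 (0.94), without sh-KLF5 replicate 1 (0.87), without sh-NC replicate 3 (0.91, adjusted p = 0.0639) and without sh-NC replicate 2 (1.004, adjusted p = 0.0523, both from limma). ADAMTS10 had a log2 fold change of 0.68 with groups that did not overlap, and did not pass the test (adjusted p = 0.106 from limma, 95% interval 0.12 to 1.24).

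ADAMTS1, a proteoglycanase that cleaves versican and aggrecan and the most abundant ADAMTS gene per length, had 821.2, 970.6 and 1004 normalized counts in sh-NC and 1157, 1242 and 1601 in sh-KLF5. The groups did not overlap, and the change was under the fold threshold (log2 fold change 0.51, SE 0.14, adjusted p = 0.0217 from limma). The adjusted p of ADAMTS1 rose above 0.05 without sh-KLF5 replicate 3 (0.0925) and without each of the sh-NC replicates (0.135, 0.0671 and 0.0507 for replicates 1, 2 and 3). ADAMTS17 had 17.7, 20.7 and 19.1 against 10.2, 9.7 and 6.0 normalized counts, and did not pass the test (log2 fold change -1.09, adjusted p = 0.106 from limma). The remaining tested members, ADAMTS7, ADAMTS13 and ADAMTS15, had log2 fold changes of -0.06, 0.53 and -0.16 and did not pass either (adjusted p = 0.908, 0.153 and 0.709 from limma).

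Without the fold threshold, 6 members (17.1%) were higher, against 6.04% of all tested genes, and 5 (14.3%) were lower, against 6.85%. The members added by this rule were MMP2, ADAM9 and ADAMTS1. The number of higher members by this rule fell to 2 without sh-NC replicate 2, and also to 2 without sh-NC replicate 3, and the number of lower members rose to 8 without sh-KLF5 replicate 1.

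Of the inhibitors, TIMP3 was the only one called. TIMP3 (ENSG00000100234, chromosome 22, 32801701 to 32863043, + strand), which binds to the matrix and inhibits ADAM17 and ADAMTS enzymes as well as MMPs, had 869.6, 799.1 and 940.1 normalized counts in sh-NC and 210.0, 182.4 and 134.4 in sh-KLF5. The groups were far apart, and 20.2% of the control mean remained (log2 fold change -2.32, SE 0.16, adjusted p = 9.88e-08 from limma). No other gene overlaps the exons of TIMP3, and with libraries left out in turn its log2 fold change lay between -2.46 and -2.14.

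TIMP1, the most abundant member of all per length, had 17698, 20403 and 24894 normalized counts in sh-NC and 17745, 18509 and 18430 in sh-KLF5. Its control libraries spread widely and overlapped with sh-KLF5 (log2 fold change -0.19, 95% interval -0.46 to 0.08, adjusted p = 0.384 from limma). TIMP2, which takes part in the activation of the MMP2 precursor by MMP14, had 3979, 3716 and 4081 normalized counts in sh-NC and 3883, 3122 and 3025 in sh-KLF5 (log2 fold change -0.24, 95% interval -0.50 to 0.02, adjusted p = 0.23 from limma). Without sh-KLF5 replicate 1, the log2 fold change of TIMP2 was -0.35 (adjusted p = 0.0102 from limma), which is under the fold threshold. Over all alternatives its adjusted p was between 0.0102 and 0.454. TIMP4 was low, with 28.9, 44.3 and 42.4 against 33.6, 23.3 and 27.1 normalized counts (log2 fold change -0.44, 95% interval -1.09 to 0.21, adjusted p = 0.395 from limma). The intervals of these 3 genes leave room for falls down to their lower limits.

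The size of the change was next set beside the level of each gene. Of the 12 members with a mean of at least 500 normalized counts in either group, MMP3 and TIMP3 were called, and the other 10 had log2 fold changes between -0.28 and 0.51. MMP3 reached this level only in sh-KLF5 (mean 1015, against 85.65 in sh-NC), so that its own rise placed it among the 12. Of the 23 tested members under this level, 6 were called. The fold changes are on the log2(normalized count + 1) scale, on which the change of a gene with a group near 0 depends on the added 1.

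**Figure D4:**
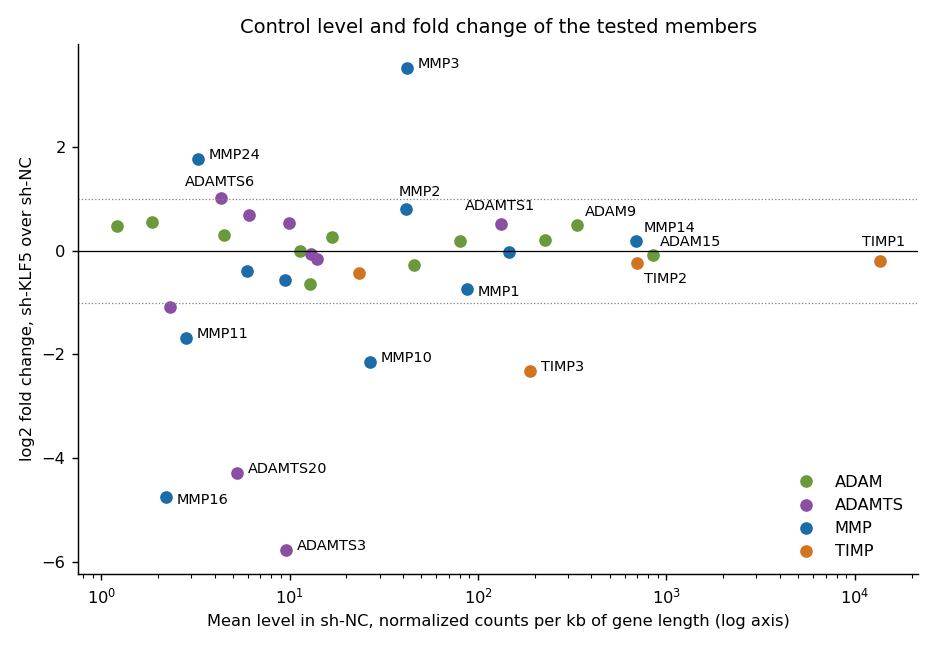
Mean level in sh-NC (horizontal log axis, normalized counts per kb of gene length) and log2 fold change (vertical axis, sh-KLF5 over sh-NC) of the 35 tested members, coloured by family, with dotted lines at -1 and 1. TIMP1, TIMP2, MMP14 and ADAM15, at the highest control levels, lie near 0. TIMP3 and then MMP3 are the called genes at the highest control levels, and MMP3 reached 500 normalized counts only in sh-KLF5.

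The make-up of the families was described on the scale of normalized counts per kb of gene length. This length takes in all annotated exons of a gene, not only those of the transcripts expressed. Levels of different genes can therefore be compared only roughly on this scale. The sum of the 18 MMP genes was 1046, 990.5 and 1155 per kb in sh-NC and 1454, 1630 and 1696 per kb in sh-KLF5. All sh-KLF5 sums were higher, and MMP3 was 3.97% of the sum in sh-NC and 30.9% in sh-KLF5 (means of 3 libraries). Without MMP3, the sum was 1022 per kb in sh-NC and 1098 per kb in sh-KLF5 (means), and MMP14 remained the most abundant MMP, with 65.0% and 49.5% of the full sum.

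The sum of the 4 TIMP genes was 12400, 14100 and 17110 per kb in sh-NC and 12270, 12620 and 12540 per kb in sh-KLF5. TIMP1 was 93.8% of it in sh-NC and 94.8% in sh-KLF5, so that the fall of TIMP3, from 1.32% to 0.306% of the sum, had little weight in it. TIMP RNA exceeded MMP RNA in every library, 11.9, 14.2 and 14.8 times in sh-NC and 8.44, 7.74 and 7.39 times in sh-KLF5. These sums were not tested, and they describe RNA, not protein or enzyme activity.

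**Figure D5:**
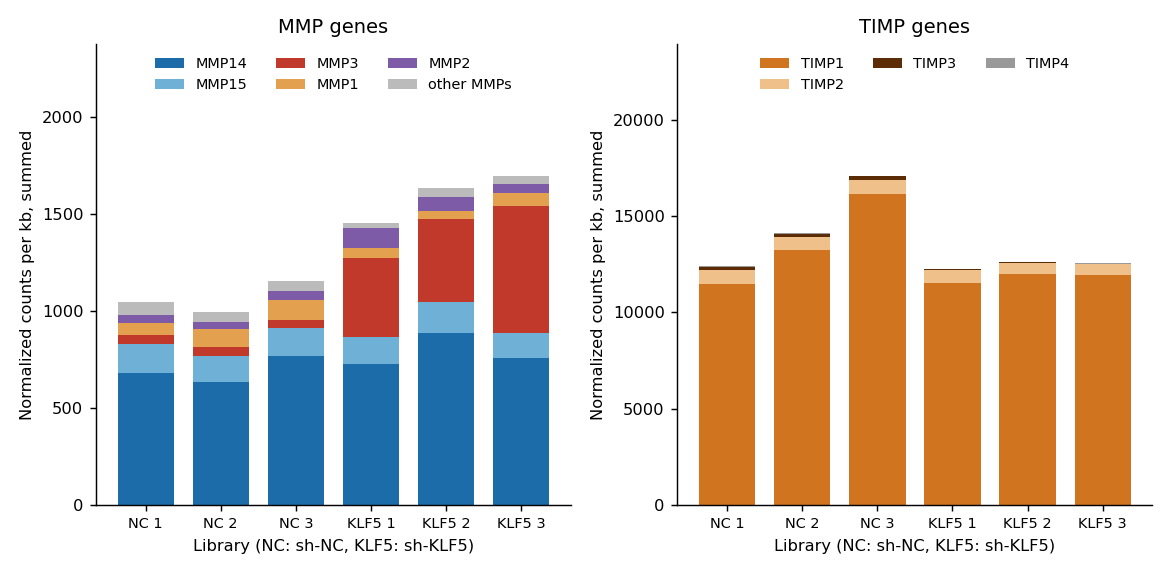
Stacked bars of normalized counts per kb of gene length (vertical axis from 0) for the MMP genes (left) and the TIMP genes (right) in the 3 sh-NC and the 3 sh-KLF5 libraries, coloured by gene. The MMP3 segment grows from 3.97% to 30.9% of the MMP sum, and TIMP1 fills most of each TIMP bar.

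A list of 44 further genes held genes that activate, inhibit or assist these enzymes. It also held 14 ADAMTS-like genes, astacins and their helpers, which are relatives rather than regulators. Of the 44 genes, 36 were in the table and 29 were tested. Of the 29 tested, 4 were called higher (13.8%) and 3 lower (10.3%), beside the same 1.9% and 3.37% of all tested genes. The relatives made up 2 of the 3 lower genes. The list of activators had no call among 6 tested genes, which include FURIN, the convertase that removes the propeptide of membrane-type MMPs and ADAMs (log2 fold change 0.10, adjusted p = 0.697 from limma).

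Some inhibitors outside the TIMP family also changed. SERPINE2 (protease nexin-1), an inhibitor of thrombin and other serine proteases, had 1469, 1546 and 1721 normalized counts in sh-NC and 5150, 4365 and 3790 in sh-KLF5, and all sh-KLF5 libraries were higher (log2 fold change 1.48, adjusted p = 8.77e-07 from limma). SPOCK1 (testican-1), a secreted proteoglycan, rose from 864 ± 34.4 to 2255 ± 297 (SD, n = 3, log2 fold change 1.38, adjusted p = 1.02e-06 from limma). A2M, which traps proteinases of all classes, fell from 37.4 ± 12.3 to 14.02 ± 5.16 (SD, n = 3, log2 fold change -1.37, adjusted p = 0.0261 from limma). RECK, an inhibitor anchored in the membrane, did not pass the test (log2 fold change 0.35, adjusted p = 0.244 from limma).

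Of the genes for maturation and partners, 1 of 11 tested was called. TSPAN5, a tetraspanin that carries ADAM10 to the cell surface, had 109.9, 114.3 and 104.0 normalized counts in sh-NC and 434.2, 374.5 and 358.9 in sh-KLF5. Every sh-KLF5 library was over every control library, 3.56-fold in the mean (log2 fold change 1.82, adjusted p = 8.02e-07 from limma), beside the ADAM10 values given above. RHBDF2, which is required for the maturation of ADAM17, was higher with a change under the fold threshold (log2 fold change 0.70, adjusted p = 0.00126 from limma), and so was CD44, a docking site for MMPs at the cell surface (0.61, adjusted p = 0.000985 from limma).

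Among the ADAMTS-like genes, astacins and their helpers, 2 of 7 tested were called, both lower. PCOLCE, which enhances the removal of the procollagen C-propeptide by BMP1, had 234.6, 171.5 and 191.0 normalized counts in sh-NC and 33.6, 54.3 and 26.1 in sh-KLF5 (log2 fold change -2.41, adjusted p = 8.43e-06 from limma). BMP1 itself overlapped between the groups (log2 fold change 0.31, adjusted p = 0.163 from limma), and the related PCOLCE2 was higher with a change under the fold threshold (0.77, adjusted p = 0.00288 from limma). ADAMTSL4, which lacks a protease domain, fell from 256.5 ± 11.8 to 123 ± 26.1 (SD, n = 3, log2 fold change -1.07, adjusted p = 0.000596 from limma).

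Some markers of fibroblasts differed between the groups. COL1A2, COL3A1, DCN and PDGFRA, 4 of the 6 fibroblast markers, were called lower in sh-KLF5, beside 3.37% of all tested genes. LUM and COL1A1 were not called and overlapped between the groups. The log2 fold change of LUM was -0.45, and COL1A1 went the other way, with 0.295. The summed level of the list was 1114 to 1591 normalized counts in sh-NC and 400.1 to 745.0 in sh-KLF5. PDGFRA had 56 to 99 reads in sh-NC and 0, 0 and 2 reads in sh-KLF5. KRT8 and MUC16 of the epithelial list were also called lower, and the sum of that list was 53800 to 65810 in sh-NC and 28390 to 38850 in sh-KLF5. The endothelial list summed to 66.1 to 87.0 and to 34.1 to 73.7 normalized counts. The part of these marker changes in the falls of ADAMTS3, MMP16, ADAMTS20, TIMP3 and MMP10 was not tested.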

How the data were processed

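Poly(A) RNA of SKOV3 cells was measured in 3 sh-NC and 3 sh-KLF5 libraries, grouped by the sample labels. The authors deposited 1 table of 29185 genes, whose values are a normalized signal: each gene's reads over the scaling factor of the library (whole multiples of 1 read in 100% of values, tolerance 0.001). The submitters' processing notes name HISAT2 2.0.5, featureCounts 1.5.0-p3, DESeq2 1.20.0 and hg38. Columns with the authors' group means, log2 fold changes and p-values were not used. Genes that passed edgeR's filterByExpr (minimum count 10) on the recovered reads were tested on log2(normalized count + 1) with limma 3.58.1 under R 4.3.3, with the trend and robust options of its empirical Bayes step, over all 6 libraries and without covariates, with Benjamini-Hochberg adjustment. Alternatives were edgeR 4.0.16 and DESeq2 1.42.0 on the recovered reads, other pseudocounts (0.1 and 5), filters and scalings, unadjusted p-values, a replicate block, and leaving out each library in turn. The scripts were tested on simulated data. No library repeated another of its group within sampling noise (lowest chi-square per degree of freedom 4.33). The values were 4.33 to 8.41 for pairs of sh-NC libraries and 10.4 to 30.4 for pairs of sh-KLF5 libraries, which thus differed more from each other.

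The table's coordinates are those of GENCODE release 29, which was used for exons and overlaps; 28 of the 51 members had an entry in the RefSeq promoter table (GRCh38.p14). Named are all called members, all TIMP genes and tested members with a mean of at least 500 normalized counts in either group. Also named are the MMP genes of the chromosome 11 cluster and called genes of the list of activators, inhibitors, partners and relatives. A gene covered by this rule is not reported here. Other genes were named after their values were seen, among them MMP2, MMP9, MMP11, MMP17, MMP25, ADAMTS10, ADAMTS17 and the genes given as near the threshold. The members and lists were chosen with earlier results of these data known. Counting intervals are exact at the 95% level. Figures were drawn with matplotlib 3.10.9.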

Additional observations from a re-analysis of the deposited data

How the results depend on the processing

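The numbers of members called higher and lower were 3 and 5 with edgeR, with DESeq2, with TMM factors and with library size alone. When a gene needed 10 reads or more in each of the libraries, the number called lower was 1, because ADAMTS3, ADAMTS20, MMP10 and MMP16 were no longer tested. Over the other settings, members called higher were 2 (pseudocount 5) to 4 (no filter), and members called lower 5 to 7 (unadjusted p). With each library left out in turn, 2 to 4 members were called higher and 5 to 6 lower, 4 of the related genes were higher throughout and 2 to 3 lower, and KLF5 had a log2 fold change between -1.62 and -1.48. The fitted log2 fold changes of ADAMTS3 (-8.26 to -3.79) and MMP16 (-8.02 to -2.63) depended on pseudocount and tool, in the same direction throughout. Deviations of the libraries from their group means correlated at 0.059, 0.0331 and 0.0504 for equal replicate numbers, and at -0.0572 to -0.00114 for unequal ones. No source states whether replicate numbers pair the libraries of the 2 groups, and these values do not settle it. With a replicate block, 3 members were called higher and 6 lower. Without the fold threshold, a count whose alternatives were chosen after seeing the data, members higher were 2 to 8 over all settings and members lower 1 to 9, the highest counts with unadjusted p. Depth limits the 16 untested members, which had at most 22 reads in a library.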

Other observations

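Values of some members that were too low to test are given here without a test. ADAM19, a sheddase of neuregulin, had 20.5, 20.7 and 8.5 normalized counts in sh-NC and 6.1, 5.8 and 7.0 in sh-KLF5. All controls were higher, but the lowest control had 8 reads and the highest sh-KLF5 library 7. The sh-KLF5 libraries lay wholly below the controls in 15.9% of all tested genes. ADAMTS16 had 1.9, 4.9 and 0.0 against 19.4, 4.9 and 5.0 normalized counts, with 1 sh-KLF5 library far above the others. MMP28 (epilysin) had 5.6, 3.9 and 10.6 against 5.1, 1.9 and 3.0 normalized counts, and the groups overlapped. The aggrecanases ADAMTS4 and ADAMTS5 had at most 2 reads in any library.

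Antisense partners were also counted. MMP25-AS1 covers 35.2% of the exonic bases of MMP25 on the opposite strand and had 174.1, 128.1 and 90.2 normalized counts in sh-NC and 165.1, 132.0 and 135.4 in sh-KLF5 (log2 fold change 0.18, adjusted p = 0.654 from limma), whereas MMP25 had 43.8, 42.4 and 30.8 against 20.4, 29.1 and 29.1.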
